A study of Homo sapiens with 9 samples.

Results

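A-kinase anchoring proteins (AKAPs) are scaffolds that bind protein kinase A (PKA) and hold it at defined places in the cell, and the mRNAs of 9 of them were followed in RNA that was co-precipitated with the guidance receptors DCC and Nrp1. The members are AKAP1, AKAP8, AKAP8L, AKAP9, AKAP10, AKAP11, AKAP12, AKAP13 and AKAP17A, taken by gene symbol from the 42785 genes of the count tables. At least 1 read was counted on 7 of the 9 in some library, and on 17377 of all genes. The family was chosen by the measured level of AKAP12, whose difference between the DCC and Nrp1 pulldowns was already known from these libraries, so the members' values in that comparison are given as a description, with no p-value.

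PKA is a tetramer of regulatory and catalytic subunits that is switched on by cAMP. An AKAP docks the regulatory subunits through an amphipathic helix and brings phosphatases, phosphodiesterases or other kinases to the same site, so that cAMP acts locally. In neurons, cAMP and PKA are known to tune how growth cones respond to guidance cues, and PKA activity is known to raise the amount of DCC, the Netrin-1 receptor, at the cell surface. Nrp1 is the receptor for Sema3A.

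All libraries came from SH-SY5Y cells, a human neuroblastoma line grown in high-glucose DMEM with serum, and the labels name no ligand treatment. The lysate was incubated with beads carrying a mouse antibody to DCC (DCC-IP) or a rabbit antibody to Nrp1 (Nrp1-IP), and whole lysate served as Input, with 3 libraries per group and 9 in all. The study asked which mRNAs associate with each receptor. An IgG pulldown was not analysed here, so binding to beads or antibody cannot be told apart from binding through the receptor. A level in a pulldown is a share of the counts of that library and not an amount of mRNA per cell. A lower level than in Input is thus a smaller share of the RNA recovered. Within Input, a bulk library cannot tell fewer cells with the mRNA from less mRNA per cell.

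The gene counts of a library summed to between 8838296 and 11055895. A level of 3 counts, taken as the floor of detection, corresponded to 0.207 to 0.387 CPM, the unit in which counts are divided by the TMM-scaled size of each library. DCC-IP replicate 1 and Input replicate 1 stood apart with 6652 and 8169 detected genes, against 9036 to 12240 in the other 7 libraries. MAP1B alone took 40.3% to 52.1% of the gene counts in the DCC pulldown and 1.58% to 2.44% in the other groups. Of 15 markers of neuroblastoma and sympathetic neurons, 14 were detected in each group, while TH, which encodes the enzyme that starts catecholamine synthesis, was at 0 throughout. Their summed level was 1329 to 4118 CPM in the DCC pulldown, 1071 to 1403 CPM in the Nrp1 pulldown and 323 to 545.5 CPM in Input. The neuronal transcription factor ISL1 held most of that sum, with 1210 to 3970 CPM, 1004 to 1333 CPM and 230 to 372 CPM in the same order, while 6 of 9 tested markers in the DCC pulldown and 9 of 11 in the Nrp1 pulldown had log2 fold changes over Input below 0, with medians of -0.54 and -1.04. Of 7 fibroblast and mesenchymal markers, 5 were detected in each group, with sums of 42.3 to 77.6 CPM in the DCC pulldown, 29.9 to 67.3 CPM in the Nrp1 pulldown and 20.9 to 59.2 CPM in Input, and COL1A2 and COL3A1 were at 0. The endothelial markers CDH5, VWF and TEK had no count, LYZ was the blood cell marker detected out of 5, at 1 count in each of 2 libraries, and EPCAM, out of 3 epithelial markers, had 12 counts in Nrp1-IP replicate 2 and 0 elsewhere. The part of these markers in the AKAP levels was not tested.

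Against the lysate, AKAP12 was lower and AKAP1 higher in the Nrp1 pulldown, while the higher values of AKAP12 in the DCC pulldown did not pass the threshold. They passed in some alternative fits, among them one with replicate number as a block, though the sample titles state no pairing. The AKAP1 call was lost with that block, whose numbers were not taken to pair Nrp1-IP with Input, and in several other fits. AKAP12 averaged 1495 ± 321 CPM in the DCC pulldown, 679 ± 75.0 CPM in Input and 211 ± 27.1 CPM in the Nrp1 pulldown (SD, n = 3 each, with TMM scaling over the 9 libraries). AKAP1 averaged 12.9 ± 0.595 CPM in the Nrp1 pulldown and 2.86 ± 0.353 CPM in Input (SD, n = 3 each). AKAP9 and AKAP13 lay between 2.26 and 32.0 CPM with groups that overlapped. AKAP8 and AKAP10 lay between 0 and 2.35 CPM, and AKAP11 was near the floor. AKAP8L and AKAP17A had no count in any library. The values are not divided by transcript length, so they rank libraries for a gene and not genes against each other.

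**Figure D1:**
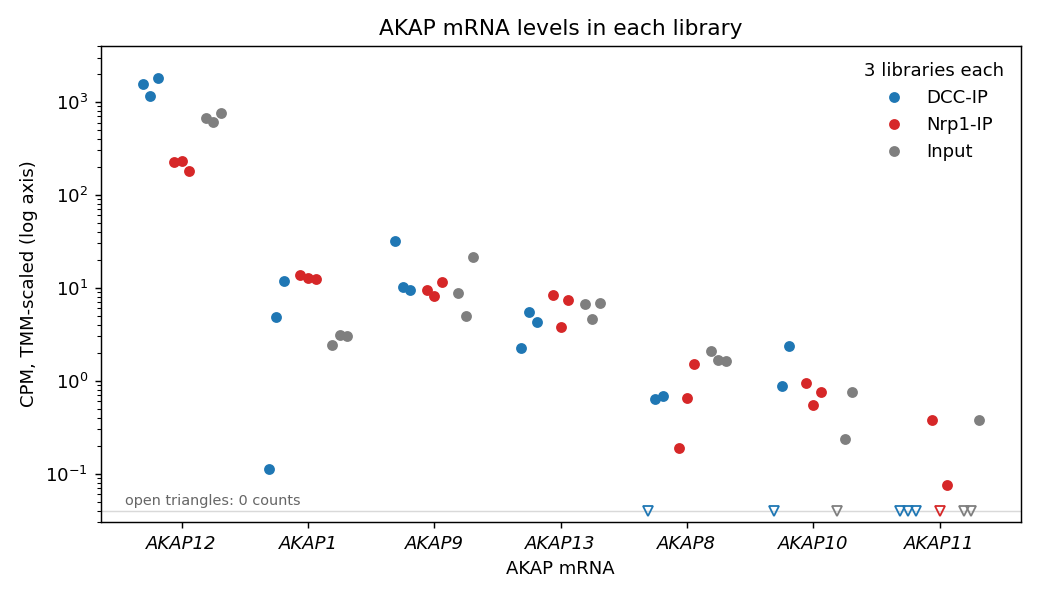
TMM-scaled CPM on a log axis for the 7 AKAP mRNAs with any count, with 1 point per library, coloured by group, and open triangles for libraries at 0 counts. The DCC-IP points of AKAP12 lie above its Input points and its Nrp1-IP points below them, and the Nrp1-IP points of AKAP1 lie between 12.4 and 13.6 CPM.

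AKAP12, also known as gravin or SSeCKS, is a scaffold of the cell cortex and plasma membrane that binds PKA, protein kinase C and the β2-adrenergic receptor. It had 13678, 14383 and 25841 counts in DCC-IP replicates 1 to 3, 2385, 2492 and 2394 in the Nrp1 pulldown and 5262, 5063 and 5998 in Input. On the TMM scale these were 1547, 1151 and 1786 CPM in the DCC pulldown, 223, 229.5 and 179.7 CPM in the Nrp1 pulldown and 679, 604 and 754 CPM in Input. Every DCC-IP library lay above every Input library, and every Input library above every Nrp1-IP library, so no pair of groups overlapped. Of all genes tested, 33.3% did not overlap between DCC-IP and Input, 31.5% between Nrp1-IP and Input and 26.5% between the pulldowns.

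Against Input, AKAP12 was 3.07-fold lower in the Nrp1 pulldown, with a log2 fold change of -1.62 (standard error, SE, of 0.29, edgeR adjusted p = 0.0259 by the quasi-likelihood test). In the DCC pulldown it was 2.43-fold higher than in Input, with a log2 fold change of 1.28 (SE 0.34), and did not pass the threshold of 0.05 (edgeR adjusted p = 0.0652). Deviations from the group means correlated at 0.117, 0.187 and 0.421 between DCC-IP and Input libraries of replicate number 1, 2 and 3. The sample titles number the libraries and state no pairing. Once this number was added to the model, the log2 fold change of this blocked fit was 1.24 and passed (edgeR adjusted p = 0.00974). The Nrp1-IP and DCC-IP libraries used in these tests are those on which the difference of AKAP12 was first known, so the p-values are not independent evidence. Between the pulldowns, AKAP12 was 7.81-fold higher in the DCC pulldown, a log2 fold change of the Nrp1 over the DCC pulldown of -2.97 (SE 0.32). The call against Input in the Nrp1 pulldown was lost in 4 of the 6 fits that left out 1 library. The adjusted p was 0.159, 0.172 and 0.13 without Nrp1-IP replicates 1, 2 and 3 and 0.0541 without Input replicate 1, with log2 fold changes from -1.79 to -1.52 over the 6 fits. Few genes of any kind were called in these 4 fits, 0 of 7633, 7 of 7618, 7 of 7158 and 77 of 7795 in that order.

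Since MAP1B held so large a part of the DCC-IP counts, AKAP12 was also read on other scales. Scaled by library size only, AKAP12 averaged 1678 ± 705 CPM in the DCC pulldown, 237 ± 16.1 CPM in the Nrp1 pulldown and 558 ± 104 CPM in Input (SD, n = 3 each). With MAP1B left out of the table, the means were 1864 ± 413 CPM, 261 ± 32.1 CPM and 876 ± 93.6 CPM. The order of the groups and the absence of overlap held on all 3 scales. As a share of the counts that did not fall on MAP1B, AKAP12 took 0.247%, 0.272% and 0.418% in the DCC pulldown, 0.0252%, 0.0254% and 0.0222% in the Nrp1 pulldown and 0.0504%, 0.0515% and 0.0692% in Input. On this share, too, the 3 groups did not overlap. AKAP12 was chosen with its difference between the pulldowns known, so these scales restate that difference and are not separate evidence.

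**Figure D2:**
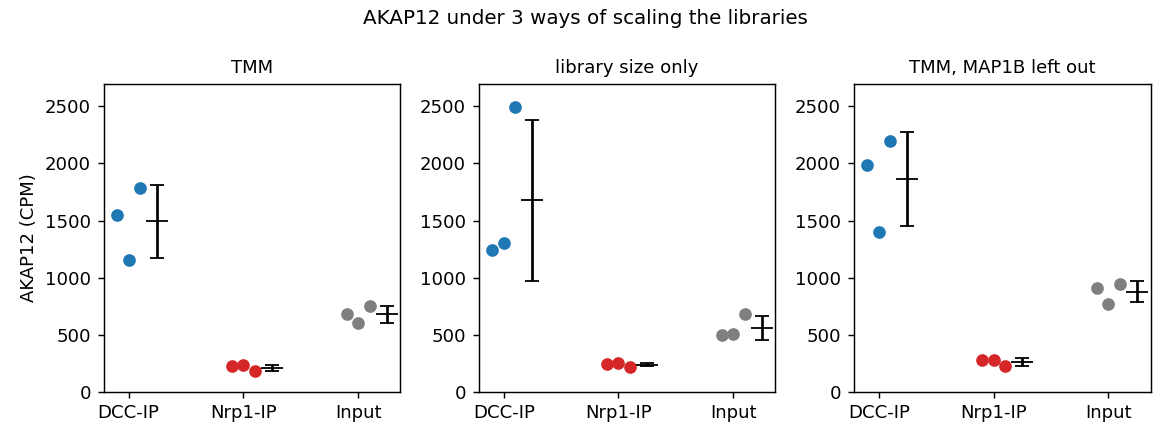
AKAP12 in CPM in each library, by group, with libraries scaled by TMM (left), by library size only (middle) and by TMM after MAP1B was left out (right), and with the mean and SD of 3 libraries beside the points. On each scale the DCC-IP points lie above the Input points and the Nrp1-IP points below them.

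AKAP1 anchors PKA at the outer membrane of mitochondria and also carries RNA-binding domains, through which it brings mRNAs to that membrane. It had 145, 139 and 165 counts in the Nrp1 pulldown, 19, 26 and 24 in Input and 1, 60 and 169 in the DCC pulldown. The Nrp1-IP libraries lay close together at 13.6, 12.8 and 12.4 CPM, above the Input libraries at 2.45, 3.10 and 3.02 CPM, whereas the DCC-IP libraries spread from 0.113 to 4.80 and 11.7 CPM.

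AKAP1 was 4.78-fold higher in the Nrp1 pulldown than in Input, with a log2 fold change of 2.26 (SE 0.48, edgeR adjusted p = 0.0417). Leaving out any 1 of the 6 libraries gave log2 fold changes from 2.05 to 2.28 with adjusted p from 0.0635 to 0.223, so each of the 6 fits lost the call. The fits without an Nrp1-IP library called 0, 7 and 7 genes in all and say little about AKAP1 itself. Those without Input replicates 1, 2 and 3 called 77, 162 and 441 genes, against 323 with all 6 libraries. The adjusted p was also over 0.05 with RLE size factors (0.0521), without a filter (0.119), with the replicate block (0.056) and in a fit of all 9 libraries (0.474), which also holds the DCC-IP libraries. In the DCC pulldown over Input the log2 fold change was 1.23 (SE 1.43, edgeR adjusted p = 0.683). It was 1.75 without DCC-IP replicate 1 (edgeR adjusted p = 0.301), 0.088 without DCC-IP replicate 3 (edgeR adjusted p = 0.984) and 0.12 with the replicate block (edgeR adjusted p = 0.979), so no difference was detectable with this spread. Between the pulldowns the log2 fold change of the Nrp1 over the DCC pulldown was 1.04 (SE 1.19). It was 1.92 with the replicate block, and without each library in turn it ranged from 0.67, without DCC-IP replicate 1, to 2.44, without DCC-IP replicate 3. The groups did not overlap with TMM scaling but did with library size only, where DCC-IP replicate 3 reached 16.3 CPM against 13.8 to 15.1 CPM in the Nrp1 pulldown.

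AKAP9, also called AKAP450 or yotiao, is a coiled-coil scaffold of the centrosome and Golgi. It had 283, 127 and 136 counts in the DCC pulldown, 101, 89 and 152 in the Nrp1 pulldown and 68, 42 and 172 in Input. DCC-IP replicate 1, at 32.0 CPM, and Input replicate 3, at 21.6 CPM, were above the other 7 libraries, which ranged from 5.01 to 11.4 CPM. Over Input the log2 fold change was 0.56 in the DCC pulldown (SE 0.87, edgeR adjusted p = 0.768) and -0.26 in the Nrp1 pulldown (SE 0.65, edgeR adjusted p = 0.869). The sign of the first turned without DCC-IP replicate 1 (-0.097) and that of the second without Input replicate 3 (0.42).

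AKAP13, or AKAP-Lbc, combines the PKA anchor with an exchange factor for the GTPase RhoA. Its counts were 20, 68 and 62 in the DCC pulldown, 90, 41 and 98 in the Nrp1 pulldown and 52, 39 and 55 in Input. The means of 4.00 ± 1.61 CPM, 6.51 ± 2.43 CPM and 6.09 ± 1.25 CPM (SD, n = 3 each) came from libraries that overlapped between every pair of groups. Over Input the log2 fold change was -0.42 in the DCC pulldown (SE 1.0, edgeR adjusted p = 0.852) and 0.16 in the Nrp1 pulldown (SE 0.57, edgeR adjusted p = 0.909).

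AKAP8, known as AKAP95, is a nuclear member that binds chromatin and the nuclear matrix. It had 0, 8 and 10 counts in the DCC pulldown, 2, 7 and 20 in the Nrp1 pulldown and 16, 14 and 13 in Input. The Input libraries lay at 1.63 to 2.06 CPM, above DCC-IP at 0 to 0.691 CPM and above Nrp1-IP at 0.187 to 1.50 CPM. Scaled by library size only, Nrp1-IP replicate 3 reached 1.83 CPM and overlapped Input, while DCC-IP stayed below it. The log2 fold change over Input was -1.71 in the DCC pulldown (SE 1.58, edgeR adjusted p = 0.593) and -1.12 in the Nrp1 pulldown (SE 1.05, edgeR adjusted p = 0.604), neither past the threshold.

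AKAP10 binds both types of PKA regulatory subunit and carries domains found in regulators of G protein signalling. Its counts were 0, 11 and 34 in the DCC pulldown, 10, 6 and 10 in the Nrp1 pulldown and 0, 2 and 6 in Input, and it passed the filter on low counts in the comparison of the pulldowns alone. There the log2 fold change of the Nrp1 over the DCC pulldown was -0.71 (SE 1.60), and it was 0.78 without DCC-IP replicate 3. AKAP11, or AKAP220, which also binds protein phosphatase 1 and glycogen synthase kinase 3, had 4, 0 and 1 counts in the Nrp1 pulldown, 0, 0 and 3 in Input and 0 in each DCC-IP library. It exceeded the floor of 3 counts in 1 library, Nrp1-IP replicate 1.

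AKAP8L, a nuclear relative of AKAP8 whose gene lies next to it, and AKAP17A, which has a role in splicing, were at 0 in all 9 libraries. A count of 0 allows a level of up to 0.207 to 0.387 CPM, depending on the library. Of the rows that match a protein-coding symbol in RefSeq, 35.4% were at 0 in all 9 libraries. AKAP17A lies in the pseudoautosomal region shared by the X and Y chromosomes, and 10 of the 16 protein-coding genes of that region in the tables were at 0 in all 9 libraries, while the other 6 held 1 to 9 counts summed over the libraries. Reads with several alignments made up 2.83% to 3.83% of each library and were assigned to no gene. Their part in these zeros was not tested.

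Each comparison tested 5 of the 9 members, since 4 did not pass the filter on low counts. The comparisons with Input share the Input libraries, so their values stand side by side and are not independent of each other. In the Nrp1 pulldown over Input, edgeR's quasi-likelihood test called 2 of the 5, AKAP1 higher and AKAP12 lower, where it called 4.97% of the 6501 genes tested, 1.94% higher and 3.03% lower. The number of members called was 1 with RLE size factors, without a filter, with all 9 libraries in the fit and with the replicate block, in each of which AKAP12 was the member called, and 0 or 1 with a library left out. In the DCC pulldown over Input, 0 of the 5 were called, with 4.98% of the 6223 genes tested called, 1.46% higher and 3.52% lower. At an unadjusted p under 0.05 there was 1 member, AKAP12, with 1367 of the 6223 genes tested in the same state. DESeq2, the exact test and the likelihood ratio test also called 0, with 1032, 540 and 645 of the 6223 genes called. AKAP12 was the 1 member called with the replicate block (715 of 6223 genes called), with library size only (308 of 6223), with at least 10 counts per library (805 of 2634) and in a fit of all 9 libraries (780 of 7628). In the Nrp1 pulldown over the DCC pulldown, 3.65% of the 6439 genes tested were called, 2.56% higher and 1.09% lower. No call of a member is given there because the comparison guided the choice of the family. The median log2 fold change of the 5 members tested was 0.56 in the DCC pulldown over Input against 0.16 for all genes tested, -0.26 in the Nrp1 pulldown over Input against 0.06, and -0.71 in the Nrp1 pulldown over the DCC pulldown against -0.27. Members tested here passed the filter in part through the group in which they were high, so these medians do not stand for all 9.

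**Figure D3:**
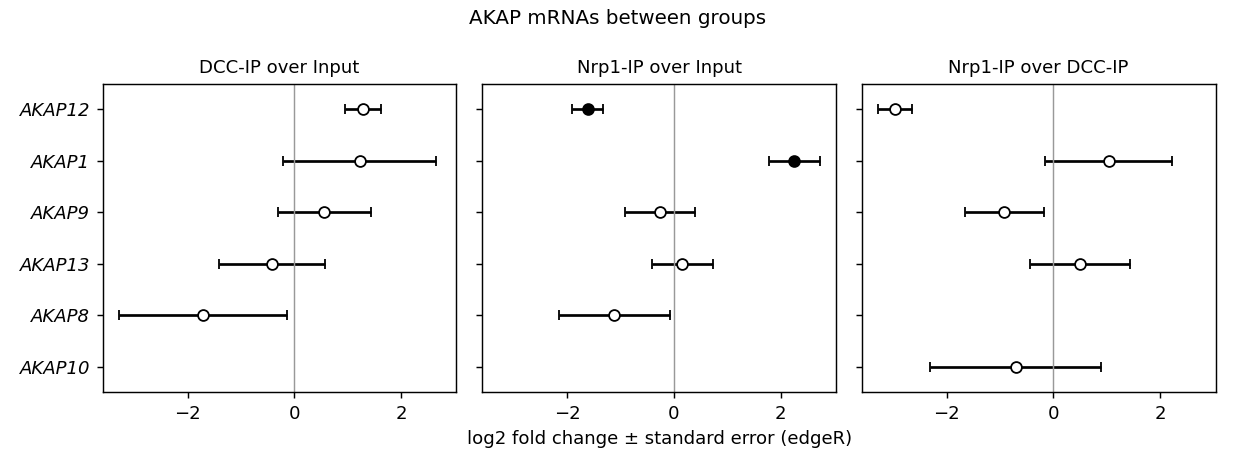
Log2 fold changes with SEs for the AKAP mRNAs tested in each comparison, filled where the adjusted p against Input was under 0.05 and open otherwise; the right panel is a description, without calls. AKAP12 and AKAP1 are the filled points, at -1.62 and 2.26 in Nrp1-IP over Input.

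Groups whose 3 values did not overlap were found for AKAP12 and AKAP8 in the DCC pulldown over Input and for AKAP12, AKAP1 and AKAP8 in the Nrp1 pulldown over Input, with 33.3% and 31.5% of all genes tested in the same state. In the Nrp1 pulldown over the DCC pulldown they were found for AKAP12 and AKAP1, with 26.5% of the genes tested. Other scalings shifted the log2 fold changes by amounts that differed between genes. With MAP1B left out, that of AKAP9 in the DCC pulldown over Input went from 0.559 to 0.927, while that of AKAP1 stayed at 1.23. The median log2 fold change of all genes in that comparison was 0.163 with TMM, 0.003 with RLE size factors, 0.481 with library size only and 0.335 with MAP1B left out. Taken relative to that median, each member tested under these 4 scalings kept its direction. AKAP12 lay 1.11 to 1.16 above the median in the DCC pulldown over Input and 1.67 to 1.68 below it (log2 scale, -1.68 to -1.67) in the Nrp1 pulldown over Input, and AKAP1 lay 2.19 to 2.20 above it in the latter.

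Counts on the members within a library do not depend on scaling. AKAP12 took 97.8%, 98.1% and 98.4% of the counts on the 9 genes in the DCC pulldown, 97.1%, 97.6% and 95.7% in Input and 87.1%, 89.8% and 84.3% in the Nrp1 pulldown. Counting error gave Wilson 95% intervals of 97.6% to 98.1% for the lowest DCC-IP library and 82.9% to 85.6% for the lowest Nrp1-IP library. These are shares of reads, which also reflect transcript length.

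The ratio of AKAP12 counts to the counts of the other 8 members together was 45, 52.5 and 62.9 in the DCC pulldown, 33.9, 41.2 and 22.0 in Input and 6.78, 8.84 and 5.37 in the Nrp1 pulldown. The 3 groups did not overlap on this ratio, which follows AKAP12, chosen with its difference between the pulldowns known. The other 8 members summed to 28.2 ± 6.22 CPM in the DCC pulldown, 30.8 ± 4.18 CPM in the Nrp1 pulldown and 23.0 ± 10.2 CPM in Input (SD, n = 3 each), and the libraries overlapped between every pair of groups. AKAP1 alone took 5.30%, 5.01% and 5.81% of the member counts in the Nrp1 pulldown, against 0.351%, 0.501% and 0.383% in Input and 0.00715%, 0.409% and 0.644% in the DCC pulldown. AKAP12 makes up most of the member counts, so the AKAP1 share also moves with AKAP12, which was 3.07-fold lower in Nrp1-IP than in Input. The fold of AKAP1 itself over Input was 4.78.

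**Figure D4:**
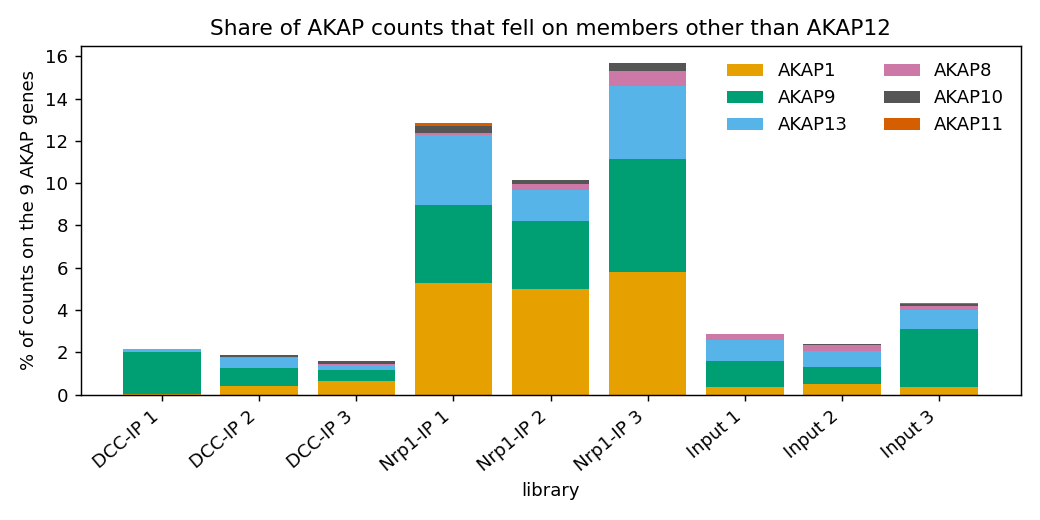
Percent of the counts on the 9 AKAP genes that fell on members other than AKAP12, stacked by gene, for each library. The Nrp1-IP bars reach 10.2% to 15.7%, with AKAP1, AKAP9 and AKAP13 as the thick layers, against 1.57% to 2.17% in DCC-IP and 2.37% to 4.35% in Input.

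Other AKAP genes added little. Of 8 further AKAP symbols, 4 had any count and none passed the filter in any comparison, so none was tested by edgeR. AKAP5, a postsynaptic scaffold that holds PKA and calcineurin near receptors, had 1, 0 and 59 counts in the DCC pulldown, 26, 6 and 4 in the Nrp1 pulldown and 0, 21 and 8 in Input, with no group apart from the others. AKAP6, a scaffold of the nuclear envelope in muscle and neurons, had 13 counts in DCC-IP replicate 3, 2 in Input replicate 3 and 0 elsewhere. AKAP14 had at most 5 counts and AKAP7 at most 1 in a library.

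The partners of AKAPs in cAMP signalling were read from the same fits over 7 lists of 79 genes, the 8 AKAP symbols included. In the DCC pulldown over Input, 18 of the 79 were tested, and edgeR's quasi-likelihood test called 3 lower and 0 higher. Of all 6223 genes tested there, it called 3.52% lower and 1.46% higher. With the replicate block it called 5 list genes, adding EZR, which encodes ezrin, as lower and the phosphodiesterase PDE4D as higher. That fit called 715 of 6223 genes in all. In the Nrp1 pulldown over Input, 25 were tested and 1 was called, as lower, where 3.03% of 6501 genes were called lower. In the Nrp1 pulldown over the DCC pulldown, 19 were tested and 2 were called, both higher in the Nrp1 pulldown. There 2.56% of 6439 genes were called higher. The median log2 fold changes of the tested list genes were -1.02, -0.14 and 0.35 in these comparisons, against 0.16, 0.06 and -0.27 for all genes tested. The lists had been drawn up with earlier results of these data known. By list, 11 of 13 other PKA-anchoring proteins, 11 of 14 phosphatase and protein kinase C genes, 12 of 16 phosphodiesterases, 6 of 10 adenylyl cyclases and 8 of 9 cAMP responders had any count.

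The genes called were PPP1CB, PPP3CA and NF2. PPP1CB encodes a catalytic subunit of protein phosphatase 1, which averaged 2950 ± 382 CPM in the DCC pulldown, 12150 ± 820 CPM in the Nrp1 pulldown and 17420 ± 4763 CPM in Input (SD, n = 3 each). Against Input it differed by a log2 fold change of -2.44 in the DCC pulldown (SE 0.29, edgeR adjusted p = 0.0052), and by -0.43 in the Nrp1 pulldown (SE 0.24, edgeR adjusted p = 0.36). PPP3CA encodes a catalytic subunit of calcineurin and was lower than Input in both pulldowns, with log2 fold changes of -2.31 in the DCC pulldown (SE 0.33, edgeR adjusted p = 0.00884) and -1.83 in the Nrp1 pulldown (SE 0.32, edgeR adjusted p = 0.024). NF2 encodes merlin, a cortical protein known to bind a PKA regulatory subunit. It averaged 1621 ± 418 CPM in the DCC pulldown, 7908 ± 930 CPM in the Nrp1 pulldown and 7375 ± 2385 CPM in Input (SD, n = 3 each), and its log2 fold change in the DCC pulldown over Input was -2.02 (SE 0.40, with edgeR adjusted p = 0.0272). From one pulldown to the other, PPP1CB and NF2 were higher in the Nrp1 pulldown by log2 fold changes of 1.89 (SE 0.25) and 2.1 (SE 0.33). These calls against Input changed with the scaling and the libraries used. In the DCC pulldown, PPP1CB alone was called with MAP1B left out (73 of 5964 genes called). With library size only, PPP1CB and PPP3CA were called and NF2 was not (308 of 6223). Without DCC-IP replicate 1 or 2 none of the 79 was called, in fits that called 0 of 7748 and 1 of 7370 genes in all. In the same comparison PPP1CB was called in the other 4 of the 6 fits that left out 1 library. PPP3CA was called in those without Input replicate 2 or 3, and NF2 in that without Input replicate 3. PPP3CA was called in the Nrp1 pulldown in the fits without Input replicate 2 or 3, and not in those without Input replicate 1 or any Nrp1-IP library, which called 0 to 77 genes in all.

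The kinase itself was thinly covered. All 9 genes for PKA subunits and PKA inhibitors had some count, but 3 or 4 of them were tested per comparison and edgeR called 0, with 0 at an unadjusted p under 0.05 and 0 called by DESeq2. PRKAR2A, a regulatory subunit of type II, the type that most AKAPs dock, had 0, 49 and 7 counts in the DCC pulldown, 92, 131 and 178 in the Nrp1 pulldown and 157, 71 and 82 in Input. Every DCC-IP library lay below every library of the other groups. Of all genes tested, 18.1% lay wholly lower in DCC-IP than in Input, and 15.6% wholly higher in Nrp1-IP than in DCC-IP. The log2 fold change of PRKAR2A in the DCC pulldown over Input was -2.90 (SE 1.56, edgeR adjusted p = 0.325). PRKACB, a catalytic subunit, had 0 counts in each DCC-IP library, 0, 0 and 4 in the Nrp1 pulldown and 19, 9 and 29 in Input, and it passed no filter. PRKAR2B, the other type II regulatory subunit, had 0, 5 and 28 counts in the DCC pulldown. It had 82, 18 and 28 in the Nrp1 pulldown and 0, 14 and 2 in Input. Its groups overlapped in every pair, as did those of the regulatory subunit PRKAR1A.

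Among the genes for cAMP turnover, ADCY3, an adenylyl cyclase, was the cyclase tested out of 10, with 205 ± 59.9 CPM in the DCC pulldown, 162 ± 25.8 CPM in the Nrp1 pulldown and 169 ± 27.2 CPM in Input (SD, n = 3 each), with libraries that overlapped between every pair of groups. PDE4D, a phosphodiesterase that several AKAPs bind, had 1928, 1462 and 14142 counts in the DCC pulldown, 766, 725 and 1302 in the Nrp1 pulldown and 587, 407 and 1717 in Input. DCC-IP replicate 3 and Input replicate 3 were the high libraries of their groups. The log2 fold change in the DCC pulldown over Input was 2.18 (SE 0.92, edgeR adjusted p = 0.209) and with the replicate block 1.78 (edgeR adjusted p = 0.0124). PDE7A, another phosphodiesterase gene, had 1, 0 and 0 counts in the DCC pulldown, 104, 34 and 34 in the Nrp1 pulldown and 97, 56 and 5 in Input. CREB1, the transcription factor that PKA phosphorylates, had 32.8 ± 5.56, 36.1 ± 1.96 and 35.4 ± 7.11 CPM in the DCC pulldown, Nrp1-IP and Input (SD, n = 3 each), with log2 fold changes over Input of 0.003 (SE 0.57) and 0.11 (SE 0.36).

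**Figure D5:**
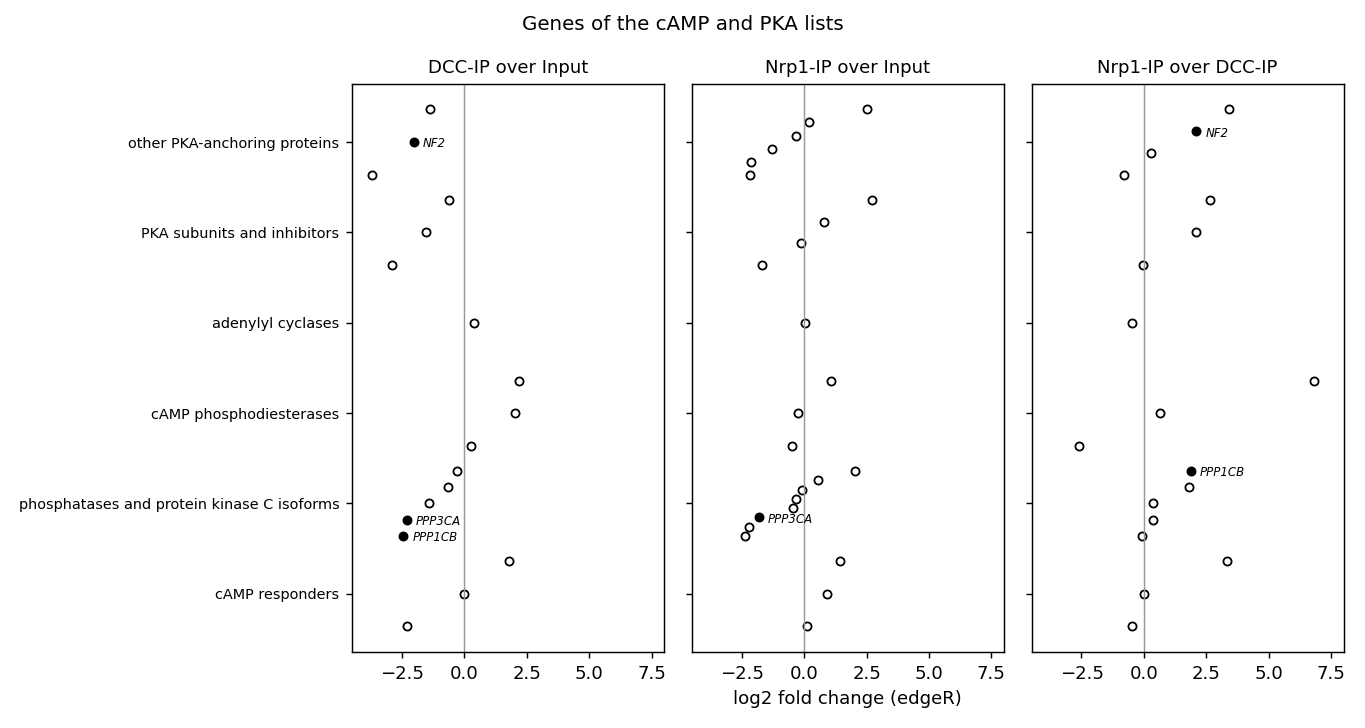
Log2 fold changes of the tested genes of 6 cAMP and PKA lists in the 3 comparisons, with 1 point per gene and filled, named points where the adjusted p was under 0.05. PPP1CB, PPP3CA and NF2 are filled on the lower side of DCC-IP over Input, and the point at 6.83 in Nrp1-IP over DCC-IP is PDE7A, whose value depends on the prior count because it had 1 count in DCC-IP.

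The genes whose levels followed AKAP12 most closely were ranked by Pearson correlation of log2 CPM over the 9 libraries, among 2581 genes with a mean of at least 10 CPM. The first 5 were DCUN1D4 (r = 0.948), LIN54 (0.943), Y_RNA (0.942), MGA (0.941) and KIAA1217 (0.94). The points share their libraries and depth, and they fall into the 3 groups. DCUN1D4, an activator of the ubiquitin-like NEDD8 pathway, averaged 3651 ± 837 CPM in the DCC pulldown, 968.5 ± 158 CPM in the Nrp1 pulldown and 1595 ± 278 CPM in Input (SD, n = 3 each). MGA, a transcription factor, averaged 677.5 ± 93.6, 115.5 ± 18.3 and 219 ± 58.1 CPM in the same order. LIN54, a subunit of the DREAM complex, averaged 809.8 ± 404, 60.8 ± 6.49 and 166.5 ± 76.2 CPM. KIAA1217 averaged 64.0 ± 11, 8.45 ± 2.66 and 20.9 ± 6.93 CPM. Y_RNA is a symbol shared by many gene copies, so its row is uncertain. By Spearman's rank correlation, 2 of the 5, DCUN1D4 and KIAA1217, were again among the first 5.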

How the data were processed

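RNA from DCC-IP, Nrp1-IP and Input of SH-SY5Y cells was sequenced after PCR-based amplification of cDNA. The authors aligned reads with HISAT2 2.1.0 and counted them with HTSeq 0.11.0, and the deposited values are raw counts per gene symbol. The submitters' processing notes name hg19 as the build. The annotation and strand setting are not given in the sources used here. The 5 HTSeq summary lines, 68.7% to 70.8% of the reads, were left out.

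Groups came from the sample titles. The methods describe independent biological replicates. Each pair of groups was fitted on its 6 libraries in edgeR 4.0.16 (R 4.3.3) with filterByExpr (minimum count 10), TMM, glmQLFit and glmQLFTest, and Benjamini-Hochberg adjusted p under 0.05 was called. The standard error is the log2 fold change divided by the square root of F. Levels are CPM with TMM over 9 libraries. Intervals and floors cover counting error only. Libraries with the same replicate number had deviations from the group means that correlated at 0.117 to 0.421 between DCC-IP and Input. DCC-IP replicate 2 and Input replicate 1 correlated at 0.136, above the lowest same-numbered value of 0.117. Replicate 1 of DCC-IP and of Input had few detected genes (6652 and 8169), and the part of this in the correlations was not tested. The same-numbered values were over 0.1 in each pair. A blocked value is therefore given beside that comparison where it changes a call or moves a fold by over 1.5 times. The sample titles state no pairing.

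Named were the 9 members, list genes called in a comparison, MAP1B, and the 5 genes most like AKAP12 by Pearson correlation among those that passed filterByExpr over all libraries. AKAP5, AKAP6, AKAP7, AKAP14, PDE7A, PRKACB, PRKAR1A, PRKAR2A, PRKAR2B, PDE4D, ADCY3, CREB1 and EZR were chosen after their values were seen. Members and lists were chosen with earlier results of these data known. Symbols matched RefSeq (GRCh38.p14) for all 9 members, and no coordinates are given since the builds differ. PECAM1 was not analysed here. Alternatives were the exact and likelihood ratio tests, DESeq2 1.42.0, RLE size factors, library size only, MAP1B left out, no filter, a minimum of 10 counts per library, one fit of all 9 libraries, the replicate block and each library left out. The fits were tested on simulated data.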

Additional observations from a re-analysis of the deposited data

How the results depend on the processing

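The number of AKAP members called in DCC-IP over Input was 0, and 1 with library size only, with at least 10 counts in every library, with all 9 libraries in one fit and with the replicate block (AKAP12 each time, with adjusted p of 0.0497, 0.0123, 0.0374 and 0.00974); without each library in turn it was 0. In Nrp1-IP over Input it was 2, and 1 with RLE size factors, with no filter, with all 9 libraries in one fit and with the replicate block, and 0 to 1 with each library left out. The sign of AKAP9, AKAP10 and AKAP13, none of them called, turned in some settings. For AKAP9 this was -0.097 in DCC-IP over Input without DCC-IP replicate 1, 0.14 with library size only, 0.04 with the replicate block and 0.42 without Input replicate 3 in Nrp1-IP over Input, and 0.012 in Nrp1-IP over DCC-IP without DCC-IP replicate 1. For AKAP13 in Nrp1-IP over Input it was -0.017 with DESeq2, -0.018 with RLE size factors, -0.076 without Nrp1-IP replicate 1 and -0.08 without Input replicate 2. For AKAP10 in Nrp1-IP over DCC-IP it was 0.02 with the replicate block and 0.78 without DCC-IP replicate 3. The cause was not tested. With each library left out, the ranges were -0.097 to 1.29 and -0.67 to 0.42 for AKAP9 over Input in DCC-IP and Nrp1-IP, -1.12 to 0.012 for AKAP9 between the pulldowns, -0.08 to 0.44 for AKAP13 and -1.09 to 0.78 for AKAP10. Genes called on the cAMP and PKA lists numbered 3 in DCC-IP over Input, 2 with library size only and 1 with MAP1B left out. They numbered 4 with all 9 libraries in one fit, where PDE7A was added as lower, 5 with the replicate block and 0 to 3 with a library left out. In Nrp1-IP over Input they numbered 1, and 2 with the likelihood ratio test, the exact test, DESeq2, no filter, a minimum of 10 counts per library and the replicate block (0 to 2 with a library left out). In Nrp1-IP over DCC-IP they numbered 2, and 4 with the likelihood ratio test, the exact test, DESeq2 and no filter. They numbered 3 with all 9 libraries in one fit and with the replicate block, and 2 to 3 with a library left out. The genes added were PDE7A, higher in Nrp1-IP, PDE4D, lower in Nrp1-IP, or both.

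Over all genes, 91 of 310 calls in DCC-IP over Input were higher, against 141 of 308 with library size only and 26 of 73 with MAP1B left out. In Nrp1-IP over Input the numbers were 126 of 323, 351 of 518 with library size only and 85 of 350 with RLE size factors, and in Nrp1-IP over DCC-IP 165 of 235, 209 of 254 with library size only, 191 of 236 with RLE size factors and 232 of 273 with MAP1B left out. In the other comparisons same-numbered libraries correlated at -0.00436 to 0.365 (Nrp1-IP and Input) and 0.0989 to 0.361 (Nrp1-IP and DCC-IP). The lowest value was under 0.1 in both, by little in the second, so the numbers were not taken to pair them. There 2 and 3 of the 3 pulldown libraries correlated best with their own number, against 3 between DCC-IP and Input. Levels per transcript length were planned and not run, since no transcript lengths were used. AKAP8, AKAP10 and AKAP11 had at most 34 counts in a library, and libraries of 1 group differed by more than counting error, with a chi-square of 48.6 to 232 per degree of freedom over genes.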
